A study of Mus musculus with 7 samples.

Results

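Translation initiation factors were examined in quadriceps femoris, a thigh muscle, of mice that overexpress a mutant form of Twinkle and of wild-type mice. Members were all probe sets annotated to exactly 1 gene symbol that starts with Eif1, Eif2, Eif3, Eif4, Eif5 or Eif6, without the eIF2 kinases (Eif2ak) and the eIF4E-binding proteins (Eif4ebp), which regulate the factors and were described apart. This rule, which used no measured value, gave 112 of the 45101 probe sets and 41 of the 18193 genes tested. Grouped by symbol, the genes were eIF1 with 4 genes, eIF2 with 5, eIF2B with 5, eIF3 with 11, eIF4 with 11, eIF5 with 4 and eIF6 with 1. No member was removed by a filter on low values, since none was used. Another 6 probe sets that carried an Eif1 to Eif6 symbol beside other symbols were left out, and Eif2s1 and Eif4g1 were not analysed here.

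Twinkle unwinds the DNA of mitochondria when it is copied, and in the title of the series these animals are linked to a response like starvation and to the hormone FGF21. They model a mitochondrial muscle disease, progressive external ophthalmoplegia. Ages, in the order of replicate numbers, were 24, 24 and 21 months for the 3 mutants and 26, 24, 21 and 23 months for the 4 wild types. Each animal gave 1 single-colour Affymetrix array, and arrays of 1 genotype are labelled as biological replicates. The promoter of the transgene, the mouse strain and the sex are not given in the sources used here. Values are on the deposited log2 scale, where 0 is a probe set's middle array of the 7, so they hold differences between arrays and no levels.

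Initiation brings a ribosome to the start codon of a messenger RNA. eIF4E binds the cap of the message, eIF4A unwinds it and the large eIF3 complex helps to place the small ribosomal subunit on it, while eIF2 carries the initiator tRNA and is recharged by the exchange factor eIF2B. Under nutrient or mitochondrial stress, kinases phosphorylate eIF2, which then inhibits eIF2B, lowers translation of most messages and raises that of a few such as Atf4. These steps act on proteins, and messenger RNA of the subunits does not measure them.

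Groups and tissue were checked first. The 10 markers of muscle fibres were all in the top of the 3 level classes that could be recovered, between 8 and 16 on the log2 scale. Of 9 measured cerebellum markers, a tissue that the sample descriptions name, 4 lay between 2 and 4, 4 between 4 and 8, and 1 between 8 and 16, which was Pvalb, also a gene of fast muscle fibres. The single probe set of Twnk, the gene of Twinkle, differed between mutant and wild-type arrays by 0.04 ± 0.18 (SE) on the log2 scale, with an adjusted p = 1.00 in limma. Where its probes lie relative to the transgene is not given, so it does not check the genotype labels. Several arrays stood apart. The mean over the 9 slow fibre markers was -3.61 in wild-type replicate 1 and -2.22 in wild-type replicate 2, against -0.12 to 0.72 on the other 5 arrays. Without these wild-type arrays the median difference over the member genes was 0.08 instead of 0.04, and that of Eif3c was 0.61 ± 0.30 (SE). In wild-type replicate 3 the mean over muscle fibre markers was -0.40, against -0.03 to 0.10 on the other arrays. It came mainly from Ryr1 (-1.29), Ttn (-1.26), Neb (-0.70) and Tcap (-0.48). Acta1, Actn2, Ckm, Des, Mb and Tnnc2 measured -0.15 to 0.08 on this array. Its means over adipocyte, leukocyte and fibroblast markers were 1.10, 0.71 and 0.88, each the highest of the 7 arrays. Its Gapdh 5′ minus 3′ control value was -0.55, against -0.04 to 0.09 elsewhere, whereas that of beta-actin was 0.12. The 18S control measured 3.19 in mutant replicate 1 and -0.77 to 0.56 on the other arrays. In RNA of whole muscle, fewer cells of a type and less RNA per cell cannot be told apart.

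Promoters of 5 members are printed here. Apart from that of Eif3c, only windows that hold a searched motif were printed, so they do not picture their factors as a whole. Each window is the 150 bases before the annotated start, from RefSeq on GRCm38.p6, 5′ to 3′ on the gene's strand. Capitals mark a searched motif, and Eif3c, whose group difference was the largest, holds none. Eif4e holds a further CACGTG that begins 228 bases before the start, outside the printed bases. Eif3c lies on the minus strand at chr7:126566367-126566516, Eif2s3x on the minus strand at chrX:94212652-94212801, Eif4e on the plus strand at chr3:138527118-138527267, Eif3f on the plus strand at chr7:108934265-108934414 and Eif3k on the minus strand at chr7:28981889-28982038.
Eif3c: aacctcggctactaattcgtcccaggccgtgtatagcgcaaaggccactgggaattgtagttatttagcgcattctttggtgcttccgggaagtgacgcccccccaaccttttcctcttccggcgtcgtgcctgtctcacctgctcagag
Eif2s3x: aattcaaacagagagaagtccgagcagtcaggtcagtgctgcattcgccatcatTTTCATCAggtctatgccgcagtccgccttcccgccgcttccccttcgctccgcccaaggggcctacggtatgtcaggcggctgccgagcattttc
Eif4e: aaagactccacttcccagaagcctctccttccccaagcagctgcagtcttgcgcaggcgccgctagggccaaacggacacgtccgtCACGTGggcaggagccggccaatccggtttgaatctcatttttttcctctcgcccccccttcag
Eif3f: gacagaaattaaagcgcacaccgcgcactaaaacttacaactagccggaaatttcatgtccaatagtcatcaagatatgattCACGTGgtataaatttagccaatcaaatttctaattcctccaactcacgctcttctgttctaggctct
Eif3k: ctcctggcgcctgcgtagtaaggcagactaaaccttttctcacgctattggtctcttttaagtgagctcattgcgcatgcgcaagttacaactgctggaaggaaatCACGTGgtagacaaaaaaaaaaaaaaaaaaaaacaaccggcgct

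Both motifs were searched on both strands from 250 bases before to 50 bases after the start, and each motif was searched on its own, whether or not it overlapped the other. The E-box CACGTG, a sequence that MYC and related factors can bind, was present in 9 of the 33 member genes with a promoter in the table (27.3%), against 8.09% of 27025 genes. These were Eif1b, Eif3a, Eif3f, Eif3k, Eif4a1, Eif4e, Eif4h, Eif5a and Eif5a2. TGATGNAA, a sequence of the kind bound by ATF4 with a partner, was present in 1 of the 33, Eif2s3x, where it reads TTTCATCA on the gene's strand (3.03%, against 4.51% of all genes). A match is a description of letters and not of binding. The genes with CACGTG had a median difference between mutant and wild-type muscle of 0.06 on the log2 scale (-0.06 to 0.21), and the 24 matched genes without it had 0.04 (-0.24 to 0.47).

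No initiation factor gene was called different between mutant and wild-type muscle. With limma, 0 of the 41 had an adjusted p under 0.05 and 0 had an unadjusted p under 0.05, where over all genes tested 0% (0 of 18193) passed the first limit and 1.45% (264 of 18193) the second, 0.753% higher and 0.698% lower in mutant muscle. The adjusted p of every member was 1.00. The differences ran from -0.24 (Eif4a2) to 0.47 (Eif3c) on the log2 scale with a median of 0.04, and 28 of the 41 were smaller than 0.1 in size. Positive differences numbered 28 (68.3%), against 46.5% of all genes and 56.9% of the 3630 genes of the highest level class, to which 30 of the 41 members belong. The 95% intervals of all 41 included 0. For 33 members the interval lay within 1.5-fold either way (0.585 on the log2 scale), and for 8 it reached past that size. The shares of all genes within this limit or under 0.1 are not given here, so these counts mark no trait of initiation factors. The median SE was 0.15 over members and 0.14 over all genes.

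The member medians of the groups overlapped. Since each probe set is centred on its median array and members differ in sign, such a median lies near 0 and does not measure how far single members parted. The member median was -0.10, 0.17 and 0.01 in mutant replicates 1 to 3 and 0.04, 0.01, -0.10 and 0.00 in wild-type replicates 1 to 4. Mutant arrays held both the highest and, with wild-type replicate 3, the lowest median. The group means of these medians were 0.03 ± 0.14 (SD, n = 3) and -0.01 ± 0.06 (SD, n = 4). Without mutant replicate 2 the median difference over the 41 genes was -0.05 instead of 0.04.

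**Figure D1:**
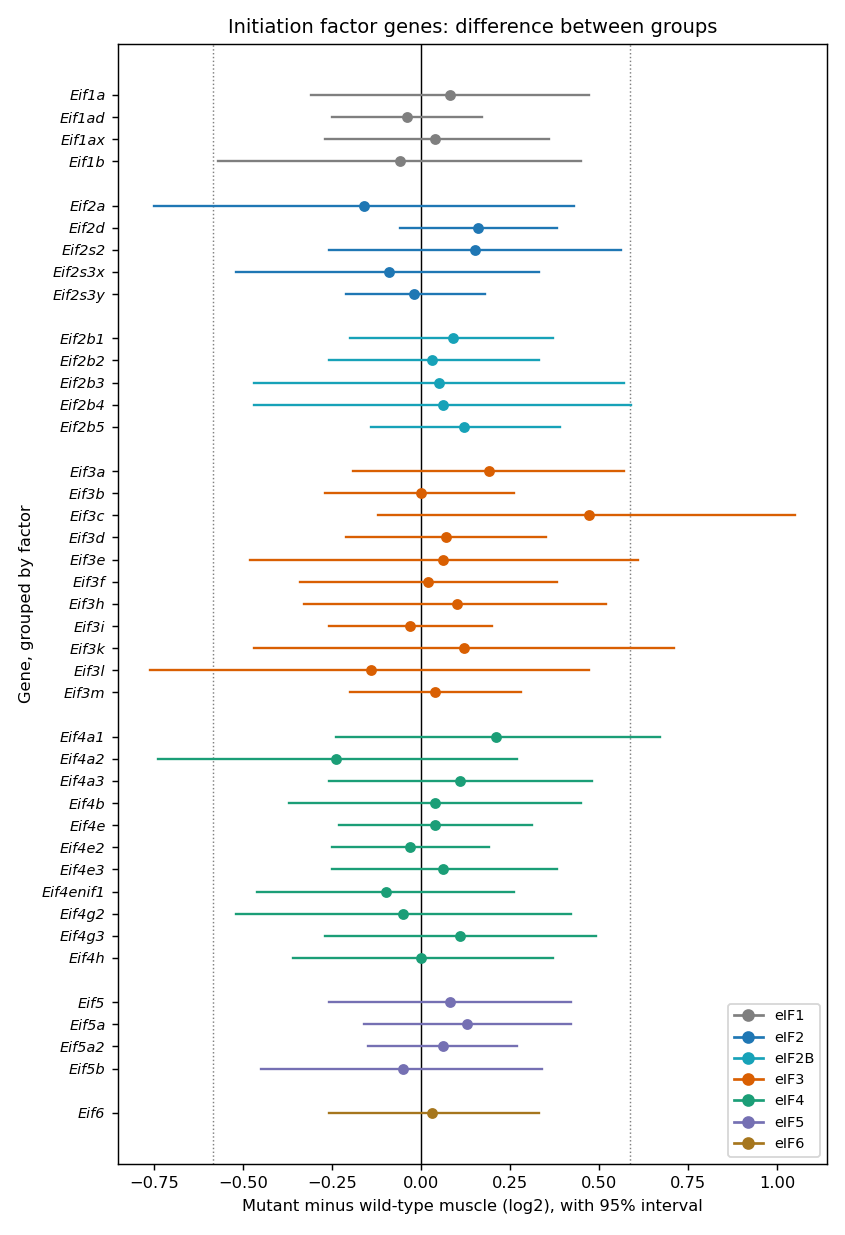
Difference between mutant and wild-type muscle (log2, horizontal axis) for each of the 41 initiation factor genes, grouped and coloured by factor; points are limma estimates from 3 mutant and 4 wild-type arrays and lines their 95% intervals. Every line crosses 0, dotted lines mark 1.5-fold either way, and Eif3c has the largest estimate at 0.47.

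The 5 genes with an Eif2 symbol outside eIF2B had a median difference of -0.02 on the log2 scale, with 2 of them positive. Of these, Eif2s2, Eif2s3x and Eif2s3y encode subunits of eIF2, the factor that delivers the initiator tRNA, and Eif2s2 encodes its beta subunit. Eif2s2 measured 0.10, -0.14 and 0.46 in mutant and -0.12, 0.32, -0.13 and -0.11 in wild-type muscle, a difference of 0.15 ± 0.18 (SE). Mutant replicate 3 and wild-type replicate 2 were high, and the groups overlapped. Eif2s3x and Eif2s3y encode the gamma subunit from the X and the Y chromosome. Eif2s3x differed by -0.09 ± 0.18 (SE) and Eif2s3y by -0.02 ± 0.09 (SE). Both probe sets of Eif2s3y lay in the lowest level class, as did those of the Y-linked genes Uty and Kdm5d, while Xist lay in the highest.

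Eif2a and Eif2d encode separate proteins that can also bring initiator tRNA to the ribosome and are not subunits of eIF2. Eif2a measured -0.56, 0.28 and 0.05 in mutant and 0.32, 0.00, -0.38 and 0.41 in wild-type muscle, a difference of -0.16 ± 0.25 (SE). The low values were in mutant replicate 1 and wild-type replicate 3, and the groups overlapped. Eif2d (Entrez 16865) was the only member whose 3 mutant arrays all lay above the 4 wild-type arrays, a pattern of 0.896% of all genes, and 0 members had the opposite pattern, seen in 1.19%. Its values were 0.05, 0.11 and 0.01 in mutant and -0.28, 0.00, -0.05 and -0.07 in wild-type muscle. The gap between mutant replicate 3 and wild-type replicate 2 was small against the spread within either group, and the difference was 0.16 ± 0.09 (SE), or 1.12-fold, with an adjusted p = 1.00 in limma. It came from 1 of 6 probe sets, the 1 in the highest level class. The other 5 differed by -0.29 to 0.06, and the mean over all 6 differed by -0.02.

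eIF2B, the exchange factor that eIF2 phosphorylation inhibits, had positive differences in all 5 genes, of 0.03 to 0.12 on the log2 scale and with a median of 0.06. The median was 0.04 to 0.25 within the array sets described later, but it was -0.05 without mutant replicate 2 and -0.04 without wild-type replicate 3. Eif2b5, the catalytic subunit, measured 0.00, 0.28 and 0.00 in mutant and -0.04, 0.12, -0.20 and 0.00 in wild-type muscle. Its mutant mean rested on mutant replicate 2, and the difference was 0.12 ± 0.11 (SE). Eif2b1, the regulatory alpha subunit, measured -0.03, 0.00 and 0.23 in mutant and -0.06, 0.19, -0.22 and 0.01 in wild-type muscle, a difference of 0.09 ± 0.12 (SE). Eif2b4, the delta subunit, measured -0.04, 0.64 and 0.00 in mutant and 0.54, -0.05, -0.16 and 0.24 in wild-type muscle. Its high arrays were mutant replicate 2 and wild-type replicates 1 and 4, and its difference of 0.06 ± 0.23 (SE) was small beside that spread. Eif2b2 and Eif2b3, the beta and gamma subunits, differed by 0.03 ± 0.13 and 0.05 ± 0.22 (SE).

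eIF3, the scaffold of the small ribosomal subunit, had a median difference of 0.06, with 8 of 11 genes positive. Its largest member difference was that of Eif3c (Entrez 56347), a core subunit. Eif3c measured 0.19, 0.54 and -0.01 in mutant and 0.19, -0.36, -0.78 and 0.04 in wild-type muscle. Wild-type replicates 2 and 3 were low, and wild-type replicates 1 and 4 lay among the mutant arrays. The means were 0.24 ± 0.28 (SD, n = 3) and -0.23 ± 0.44 (SD, n = 4). The difference was 0.47 ± 0.25 (SE), or 1.38-fold, with a 95% interval of -0.12 to 1.05, an unadjusted p = 0.10 and an adjusted p = 1.00 in limma. Without wild-type replicate 3, the array with the low muscle marker mean and a Gapdh 5′ minus 3′ value of -0.55, it was 0.28 ± 0.20 (SE). The parts of that array's cell content and RNA quality in the result were not tested.

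The 4 probe sets of Eif3c all measured higher on average in mutant muscle but by different amounts. Probe set 1415859_at measured 0.47, 0.51 and 0.56 in mutant and -0.19, -0.33, -1.30 and 0.00 in wild-type muscle. Its mutant arrays lay close together and above all wild-type arrays, as in 1.10% of the probe sets tested, and the difference was 0.97 ± 0.29 (SE), or 1.96-fold. Its unadjusted p was 0.0120 and its adjusted p = 1.00 in limma over 34945 probe sets. Without wild-type replicate 3 the difference was 0.69. Probe set 1415858_at measured 0.28, 0.30 and 0.00 in mutant and 0.04, -0.07, -0.25 and -0.11 in wild-type muscle, a difference of 0.29 ± 0.11 (SE). Here mutant replicate 3 lay among the wild-type arrays. The remaining probe sets, 1456083_x_at and 1456374_x_at, carry a suffix that Affymetrix gives to sets with probes that can match other transcripts. They differed by 0.38 ± 0.43 and 0.23 ± 0.28 (SE), and were high in mutant replicate 2 and wild-type replicates 1 and 4. Without wild-type replicate 3 these differences were 0.12 and 0.09, and that of 1415858_at was 0.24.

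**Figure D2:**
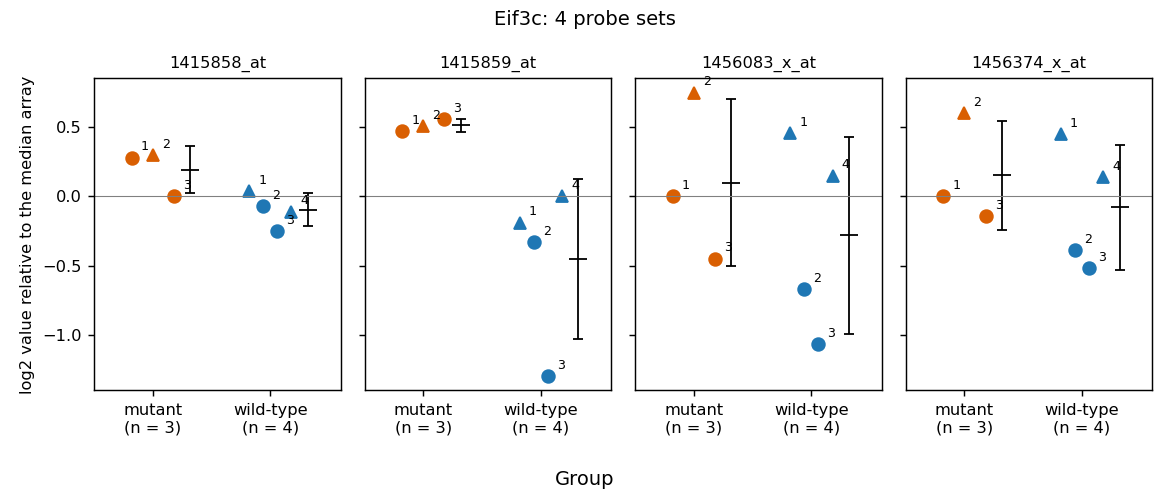
Deposited log2 value relative to the median array (vertical axis) for the 4 probe sets of Eif3c in mutant (orange, n = 3) and wild-type (blue, n = 4) muscle; small digits are replicate numbers, triangles mark mutant replicate 2 and wild-type replicates 1 and 4, and black bars are group means ± SD. Of these 4 sets, 1415859_at is the one in which the mutant arrays, at 0.47 to 0.56, are higher than each wild-type array.

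Among the other eIF3 subunits, Eif3a, the largest, measured -0.14, 0.27 and 0.15 in mutant and 0.18, 0.00, -0.40 and -0.15 in wild-type muscle, a difference of 0.19 ± 0.16 (SE). The groups overlapped, with wild-type replicate 3 lowest. Its probe sets disagreed, with differences of -0.02 to 0.45, and 1448425_at was the 1 whose mutant arrays (0.04, 0.10 and 0.29) all lay above the wild-type arrays (-0.13, 0.00, -0.58 and -0.26). Eif3d, which can bind the cap itself, measured 0.00, 0.26 and -0.16 in mutant and 0.06, -0.03, 0.00 and -0.18 in wild-type muscle. The groups overlapped, and the difference was 0.07 ± 0.12 (SE). The other 8 genes, Eif3b, Eif3e, Eif3f, Eif3h, Eif3i, Eif3k, Eif3l and Eif3m, differed by -0.14 (Eif3l) to 0.12 (Eif3k).

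eIF4, the factors at the cap, had a median difference of 0.04, with 7 of 11 genes positive. Eif4e, which binds the cap, measured -0.10, -0.07 and 0.04 in mutant and -0.27, 0.14, -0.03 and -0.17 in wild-type muscle. The mutant arrays lay inside the wild-type range, and the difference was 0.04 ± 0.11 (SE). The helicases Eif4a1 and Eif4a2, close paralogs, had estimates of opposite sign. Eif4a1 measured 0.56, -0.13 and 0.29 in mutant and 0.02, 0.34, 0.00 and -0.24 in wild-type muscle, a difference of 0.21 ± 0.19 (SE). Eif4a2 measured -0.42, 0.23 and -0.07 in mutant and 0.50, 0.00, -0.22 and 0.33 in wild-type muscle, a difference of -0.24 ± 0.22 (SE). Both estimates moved with single arrays: that of Eif4a1 was 0.05 without mutant replicate 1 and 0.40 without mutant replicate 2, and that of Eif4a2 was -0.07 and -0.40. The arrays with high Eif4a2 were mutant replicate 2 and wild-type replicates 1 and 4, and these had low or middling Eif4a1.

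The difference Eif4a1 minus Eif4a2, a pair chosen after its values were seen, was 0.98, -0.36 and 0.36 in mutant and -0.49, 0.34, 0.22 and -0.57 in wild-type muscle. It was negative on those same 3 arrays of both genotypes and positive on the other 4. Eif4a3, the related helicase of the exon junction complex, measured 0.52, -0.15 and -0.03 in mutant and -0.02, 0.00, 0.04 and 0.00 in wild-type muscle, so its difference of 0.11 ± 0.16 (SE) came from mutant replicate 1. The other 7 were the cap-binding relatives Eif4e2 and Eif4e3, the eIF4E transporter Eif4enif1, the scaffolds Eif4g2 and Eif4g3, and the helicase partners Eif4b and Eif4h. They differed by -0.10 (Eif4enif1) to 0.11 (Eif4g3).

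**Figure D3:**
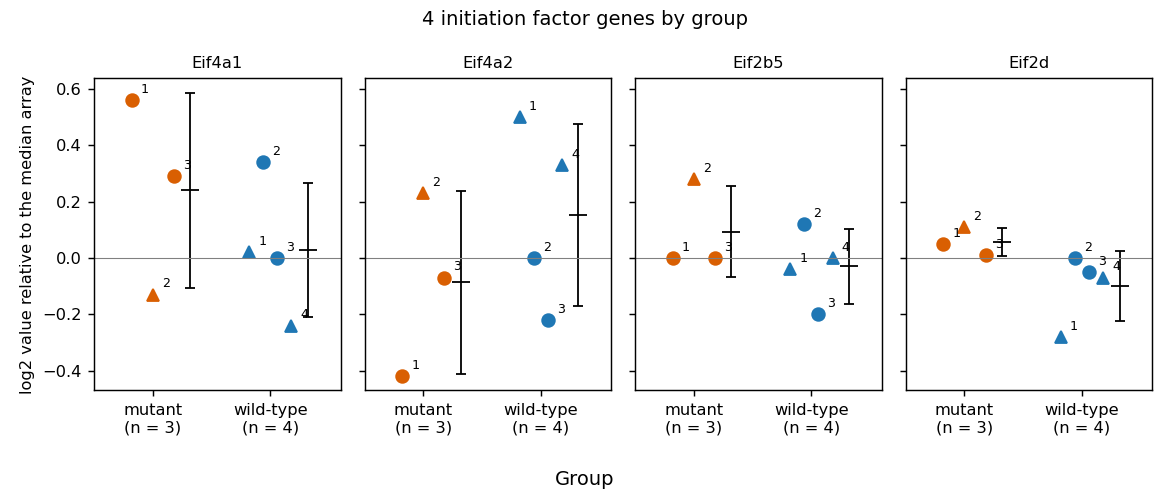
Deposited log2 value relative to the median array (vertical axis) of Eif4a1, Eif4a2, Eif2b5 and Eif2d in mutant (orange, n = 3) and wild-type (blue, n = 4) muscle; small digits are replicate numbers, triangles mark mutant replicate 2 and wild-type replicates 1 and 4, and black bars are group means ± SD. The groups overlap in Eif4a1, Eif4a2 and Eif2b5, and in Eif2d the lowest mutant array (0.01) lies just above the highest wild-type array (0.00).

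The remaining factors act in start codon choice, subunit joining and later steps. eIF1 and eIF1A, which scan for the start codon, had a median of 0.00 over Eif1a, Eif1ad, Eif1ax and Eif1b. Eif1a measured -0.21, 0.37 and -0.17 in mutant and 0.04, -0.20, 0.06 and -0.24 in wild-type muscle, a difference of 0.08 ± 0.17 (SE). The high array was mutant replicate 2, and the other mutant arrays lay within the wild-type range. Eif1ax, its X-linked copy, measured -0.18, 0.32 and 0.00 in mutant and 0.14, 0.00, 0.02 and -0.14 in wild-type muscle, a difference of 0.04 ± 0.14 (SE). Eif1ad, a related protein, measured 0.10, -0.01 and -0.16 in mutant and 0.04, 0.01, -0.01 and 0.04 in wild-type muscle, a difference of -0.04 ± 0.09 (SE). In Eif1ad the mutant arrays lay on both sides of the wild-type arrays. Eif1b, a close relative of eIF1, measured -0.18, 0.00 and 0.01 in mutant and -0.33, 0.27, 0.45 and -0.37 in wild-type muscle. Its wild-type arrays split into a high and a low pair around the mutant arrays, and the difference was -0.06 ± 0.22 (SE). It was 0.35 within mutant replicate 2 and wild-type replicates 1 and 4, and -0.44 within the other 4 arrays.

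Eif5, which makes eIF2 hydrolyse its GTP, measured -0.17, 0.11 and 0.10 in mutant and 0.07, -0.09, -0.37 and 0.12 in wild-type muscle, a difference of 0.08 ± 0.14 (SE). Its 5 probe sets differed by -0.25 to 0.39. Eif5a, a hypusine-bearing factor that acts mainly in elongation, measured 0.00, 0.05 and 0.07 in mutant and -0.11, 0.14, -0.35 and -0.02 in wild-type muscle. The mutant arrays were close together inside the wild-type range, and the difference was 0.13 ± 0.12 (SE). Its paralog Eif5a2, in the lowest level class, measured -0.05, 0.10 and 0.20 in mutant and 0.06, -0.05, 0.08 and 0.00 in wild-type muscle, a difference of 0.06 ± 0.09 (SE). Eif5b, which joins the ribosomal subunits, differed by -0.05 ± 0.17 (SE), and its probe set 1435592_at by 0.43 ± 0.18 (SE). Eif6, which keeps the large subunit from joining early, measured 0.00, -0.20 and 0.05 in mutant and -0.24, 0.14, 0.01 and -0.25 in wild-type muscle. Its low arrays were again mutant replicate 2 and wild-type replicates 1 and 4, and the difference was 0.03 ± 0.13 (SE).

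Probe sets of 1 gene often disagreed. Of the 31 members with several probe sets, 22 had both positive and negative differences, and they share a transcript but not its position or isoforms. Of the 112 probe sets, 65 measured higher and 47 lower on average in mutant muscle. With limma 0 of the 112 had an adjusted p under 0.05, as over all probe sets (0%), and 4 an unadjusted p under 0.05, against 1.79% of all. These 4 were 1415858_at and 1415859_at of Eif3c, 1448425_at of Eif3a and 1435592_at of Eif5b. The mutant arrays were higher than every wild-type array for 3 member probe sets and lower than every one for 0, against 1.10% and 0.941% of all.

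Much of the variation between arrays was shared by mutant and wild-type animals. The first principal component of all genes held 52.3% of the variance and set mutant replicate 2 and wild-type replicates 1 and 4 apart from the other 4 arrays, a split chosen after the data were seen. Over the 41 member genes, Pearson's r was 0.62 to 0.74 among those 3 arrays, 0.12 to 0.53 among the other 4 and -0.65 to -0.31 between the sets. Over all genes it was 0.35 to 0.50, -0.05 to 0.35 and -0.49 to -0.19. All values share their centring on the median array, so these correlations are a description.

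Of the members, 27 measured higher and 14 lower in the 3 arrays than in the other 4, that is 65.9% higher against 40.2% of all genes and 51.4% of genes of the highest level class. The upper end held Eif3l at 0.66, Eif2a at 0.56, Eif2b4 at 0.53, Eif4a2 at 0.53, Eif3e at 0.51 and Eif3c at 0.50. The lower end held Eif3k at -0.61, Eif4a1 at -0.42, Eif3h at -0.41 and Eif1b at -0.37. Subunits of 1 complex thus lay at both ends, with Eif3l and Eif3e against Eif3k and Eif3h. Eif4e2 shows how far 1 probe set can follow the split: 1435803_a_at measured 1.22, 1.09 and 0.92 on the 3 arrays and -0.19 to 0.00 on the other 4, while the 4 other probe sets of the gene differed between the sets by -0.20 to -0.02. None of the 3 was wild-type replicate 3, which lay at the opposite end of the first principal component. It scored -37.92, against 32.73 in mutant replicate 2 and 28.15 and 14.18 in wild-type replicates 1 and 4. Leukocyte marker means were lowest on those 3 arrays (-0.19, -0.42 and -0.32) and highest in wild-type replicate 3 (0.71). The 3 arrays were also lowest in the means over endothelial and nerve markers, but not over adipocyte or fibroblast markers. Single markers did not all follow these means. The nerve marker Mbp measured 0.21 in mutant replicate 2, 0.22 in wild-type replicate 4 and -0.74 in wild-type replicate 3. In mutant replicate 2 the endothelial markers Kdr and Tek measured 0.19 and 0.22. The leukocyte markers Cd3e and Ptprc measured -0.86 and 0.28 there. What sets the 3 arrays apart was not tested.

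**Figure D4:**
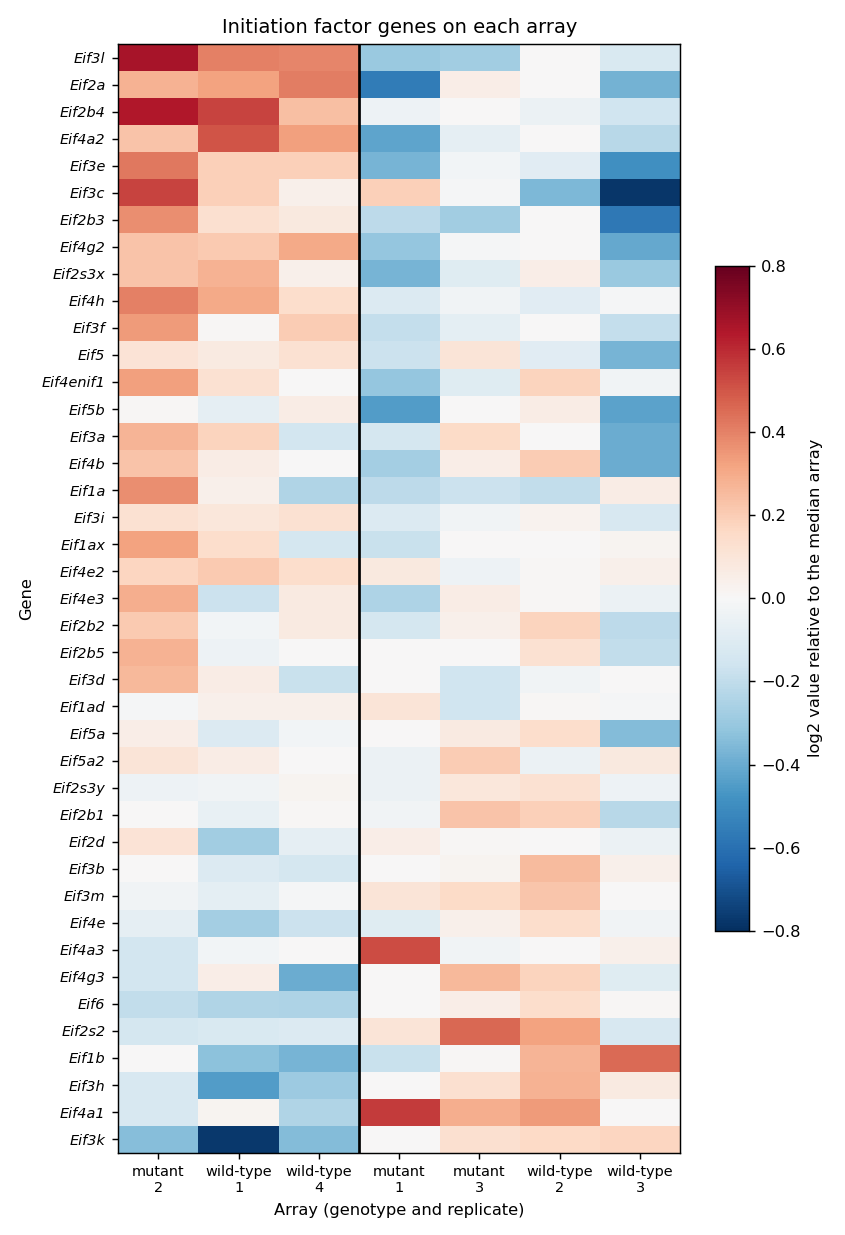
Deposited log2 value relative to the median array (colour) for the 41 initiation factor genes (vertical axis) on each of the 7 arrays (horizontal axis), ordered by the mean of mutant replicate 2 and wild-type replicates 1 and 4, left of the black line, minus that of the other 4 arrays. Genes at the top, from Eif3l at 0.66, are red left of the line and those at the bottom, to Eif3k at -0.61, are blue, in both genotypes.

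Within these sets of arrays the genotype difference of the members was not stable in sign. Their median was 0.15 on the log2 scale within the 3 arrays (1 mutant, 2 wild-type) and -0.02 within the other 4 (2 and 2). With the split as a block in limma it was 0.06, and 28 of 41 genes were positive. Eif3c kept its direction, with 0.42 within the 3 arrays, 0.66 within the other 4 and 0.57 ± 0.13 (SE) with the block. That blocked difference had an unadjusted p = 0.00342, in a fit where 5.00% of all genes had an unadjusted p under 0.05, and an adjusted p = 0.888 in limma. Over its other alternatives the adjusted p of Eif3c ran from 0.278 to 1.00. Because the split came from the same values, the blocked p is no independent evidence.

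Regulators and partners of the factors gave 0 calls in each list with limma, as did all genes tested (0 of 18193). The lists were chosen with earlier results of these data known, and over all genes 46.5% of differences were positive. Of the 6 eIF2 kinases and phosphatase subunits, 4 were positive with a median of 0.11. Eif2ak1, the kinase that answers to heme and mitochondrial stress, differed by 0.17 ± 0.12 (SE), and Ppp1r15a, which directs dephosphorylation of eIF2, by 0.34 ± 0.28 (SE). The eIF4E-binding proteins Eif4ebp1 and Eif4ebp2, which block the cap-binding protein, differed by 0.07 ± 0.12 and 0.12 ± 0.13 (SE). In the mTORC1 pathway, which controls those proteins, 14 of 16 genes were positive with a median of 0.14. The means of this list overlapped, at 0.00, 0.06 and 0.07 in mutant and -0.07, 0.06, -0.24 and -0.04 in wild-type muscle. Wild-type replicate 3 was the lowest. The inhibitors Sesn3 and Tsc2 of this pathway differed by 0.29 ± 0.13 and 0.22 ± 0.13 (SE).

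The next list, of the ATF4 branch, was also chosen with earlier results of these data known, and the series title names FGF21. Its counts beside those of all genes are thus no independent evidence. Of 10 targets or members of the ATF4 branch, the response that eIF2 phosphorylation starts, 10 were positive, against 46.5% of all genes. Their median was 0.59, and 3 had an unadjusted p under 0.05 in limma, against 1.45% of all genes. Mthfd2, an enzyme of mitochondrial one-carbon metabolism, differed by 1.52 ± 0.33 (SE) and Fgf21, a stress hormone, by 1.48 ± 0.29 (SE), against 0.47 for the largest member difference. The sizes were uneven: Atf4 itself differed by 0.10 ± 0.26, Ddit3 by 0.17 ± 0.24 and Chac1 by 0.41 ± 0.45 (SE). Sesn2, which is also in the mTORC1 list, differed by 0.15 ± 0.09 (SE). The mean of this list was 0.93, 0.32 and 0.22 in mutant and -0.23, -0.11, -0.14 and -0.21 in wild-type muscle, so the groups did not overlap. Mutant replicate 1, the highest, was also the array with the 18S control at 3.19. On mutant replicates 2 and 3, with the 18S control at -0.77 and 0.56, the list means were 0.32 and 0.22. In mutant replicate 3 the mean came mainly from Fgf21 (0.83), Chac1 (0.77) and Mthfd2 (0.46), and the rest of the list measured -0.09 to 0.22. In mutant replicate 2 single genes ran from -0.59 (Atf4) to 0.94 (Mthfd2). Gene by gene, 3 of the 10 had no overlap, with mutant muscle higher, against 0.896% of all genes. These were Fgf21, Mthfd2 and Sesn2. In Sesn2 the lowest mutant and the highest wild-type values both rounded to -0.02. Whether the 18S control bears on these values was not tested. The order of the mutant arrays in the list mean differed from that in the member medians, which were highest in mutant replicate 2.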

How the data were processed

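The deposited table holds the authors' log2 values for 45101 probe sets on 7 arrays, with a median of exactly 0 in every probe set. The submitters' processing notes name GCOS 4.0, and the summary method, scaling and centring are not given in the sources used here. The log base of 2 and rough level classes (2 to 4, 4 to 8, 8 to 16) were read from the spacing of the printed numbers, and 7274 probe sets had a class with a posterior under 0.9. Of the probe sets, 34958 had 1 gene symbol, 932 several and 9211 none. Genes with several probe sets were represented by the average of those in the gene's highest level class. Promoter sequences are from RefSeq, GRCm38.p6.

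All 18193 genes were fitted with limma 3.58.1 in R 4.3.3 (lmFit, eBayes), comparing 3 mutant with 4 wild-type arrays in a two-sided test without covariates. The Benjamini-Hochberg adjustment ran over all 18193 genes, with a threshold of 0.05. The fitting code was also run on simulated data with independent noise in each gene. Those data lack the variation that arrays share here, so that run does not show how the fit performs on this table. Errors of differences are limma's standard errors. The number of arrays limits the precision.

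The text names every member whose groups do not overlap, in each factor the 3 members with the smallest p, and always Eif2b5, Eif4e, Eif5a and Eif6, and of each pathway list the 2 with the smallest p. Other members are named with their difference alone. The members and lists were chosen with earlier results of these data known. Alternatives were quantile normalization, other ways to combine or filter probe sets, age, a variance trend, a replicate block, leaving out arrays, and a block of 3 arrays added after the data were seen.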

Additional observations from a re-analysis of the deposited data

Results flagged for a closer look

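Eif2s2, the beta subunit of eIF2, had 1 wild-type array far from the other 3. Wild-type replicate 2 measured 0.32 on the log2 scale and the others -0.12, -0.13 and -0.11, a gap to the nearest array that took up nearly the whole range of the group. Of 41 wild-type groups checked, 1 for each member, this was the 1 with such a gap, which chance gives in about 1 in 20 groups. All 6 probe sets of Eif2s2 had a positive difference between mutant and wild-type muscle, of 0.03 to 0.27.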

How the results depend on the processing

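In limma 0 initiation factor genes had an adjusted p under 0.05 in every setting run, and 0 to 5 had an unadjusted p under 0.05, where the count over all genes ran from 96 (replicate block) to 3479 (within the 3 arrays). Replicate numbers were not used as pairs in the main fit. The correlations of same-numbered arrays' deviations were -0.47, -0.29 and 0.13, which cannot decide whether same-numbered animals were matched. Ages were equal for replicates 2 (24 months) and 3 (21 months), but not for replicate 1 (24 and 26 months). The fit with the replicate number as a block gave a median member difference of 0.03, against 0.04 without it, and turned Eif1ax to -0.01 and Eif6 to -0.02. Leaving out 1 array at a time gave ranges of -0.05 to 0.10 for the median of all members, -0.09 to 0.08 for eIF1, -0.06 to 0.08 for eIF2, -0.05 to 0.16 for eIF2B, 0.00 to 0.09 for eIF3, -0.07 to 0.08 for eIF4, 0.01 to 0.14 for eIF5 and -0.02 to 0.11 for eIF6. For single genes the ranges were -0.11 to 0.19 for Eif1a, -0.10 to 0.03 for Eif1ad, -0.09 to 0.16 for Eif1ax, -0.34 to 0.08 for Eif2a, -0.16 to 0.19 for Eif2b4, -0.01 to 0.29 for Eif2s2, -0.04 to 0.17 for Eif3d, -0.09 to 0.24 for Eif4a3, -0.02 to 0.11 for Eif4e and for Eif6, and -0.02 to 0.17 for Eif5. The other named genes kept their sign or reached 0, with 0.00 to 0.16 for Eif2b1, 0.03 to 0.17 for Eif2b5, 0.10 to 0.19 for Eif2d, 0.08 to 0.30 for Eif3a, 0.28 to 0.61 for Eif3c, 0.05 to 0.40 for Eif4a1, -0.40 to -0.07 for Eif4a2, 0.04 to 0.20 for Eif5a and 0.00 to 0.12 for Eif5a2. Within the 3 arrays that stand apart, the median was 0.15 for all members, 0.34 for eIF1, 0.25 for eIF2B and 0.23 for eIF3, and Eif2s2 turned to -0.03, Eif4a1 to -0.02 and Eif4a3 to -0.14. Within the other 4 arrays, the median was -0.11 for eIF1, -0.04 for eIF3 and -0.01 for eIF4, and Eif1a turned to -0.12, Eif1ax to -0.10, Eif3d to -0.07, Eif4e to -0.09 and Eif6 to -0.05. With those 3 arrays as a block Eif6 was -0.01, with quantile normalization Eif2b4 was -0.02, and with the mean over all probe sets Eif2d was -0.02. The cause of these shifts was not tested. Each probe set as its own unit gives no single value per gene and was not run for named genes, and leaving out the lowest level class drops Eif2s3y and Eif5a2.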

Other observations

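Later steps of protein synthesis and the partners of the initiation factors were measured with the same fit. With limma 0 genes of these lists passed the threshold, as over all genes (0 of 18193), of which 46.5% had a positive difference. Of 11 elongation and termination factors, 8 had a positive difference between mutant and wild-type muscle, with a median of 0.06 on the log2 scale. Eef2k, the kinase that slows elongation, differed by 0.28 ± 0.20 (SE) and Gspt1, a release factor, by 0.10 ± 0.12 (SE). Of 6 poly(A)-binding proteins and partners, 5 were positive with a median of 0.10, Pabpn1 at 0.43 ± 0.23 and Pabpc1 at 0.12 ± 0.18 (SE). Of 8 other helpers of initiation, 6 were positive with a median of 0.06, and Bzw2, which mimics part of eIF5, differed by 0.26 ± 0.11 (SE). Its unadjusted p in limma was 0.0493, and 1.45% of all genes had an unadjusted p under 0.05. Mknk1, a kinase of eIF4E, differed by 0.11 ± 0.13 (SE). The mitochondrial initiation factors Mtif2 and Mtif3 differed by 0.01 ± 0.20 and 0.13 ± 0.11 (SE).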
